A study of Macaca mulatta with 12 samples.

Results

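The comparison concerns progesterone in the dorsal raphe of 12 female rhesus monkeys: the 6 arrays of animals that received progesterone, alone or with estrogen, were set against the 6 arrays of animals that did not, with estrogen as the other factor. All 12 of the 12 arrays of the study enter it, 1 monkey per array and 3 monkeys in each of 4 groups. Placebo and estrogen are the groups without progesterone. Progesterone and estrogen plus progesterone are the groups with it. The balanced layout gives the progesterone difference once without estrogen (progesterone minus placebo) and once with estrogen (estrogen plus progesterone minus estrogen), and these share no array. The main effect is their mean.

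Steroids were delivered from Silastic capsules placed under the skin for 1 month before death, and total RNA of a block of the dorsal raphe was hybridised to Affymetrix rhesus arrays. Placebo titles include OVX, which was read as ovariectomized; titles in the remaining groups lack it, so whether every animal was ovariectomized is not given. Progesterone arrays are titled EP and described as P, and were treated here as receiving progesterone without estrogen. Ages and capsule doses are not given in the sources used here.

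Progesterone acts through the nuclear progesterone receptor, which is held ready for hormone by HSP90 chaperones and the immunophilins FKBP4 and FKBP5, and also through membrane proteins of the PGRMC and PAQR families. The dorsal raphe holds most of the serotonin neurons that project to the forebrain, and in primates these neurons are known targets of ovarian steroids. Estrogen is the classical inducer of the progesterone receptor, which is why progesterone treatment is often studied with and without estrogen priming.

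Of 26383 probe sets tested, values are given as log2 of the normalised intensity, where a difference of 1 is a doubling of the signal. Array medians before normalisation ran from 71.1 to 98.6 on the intensity scale, and the arrays' rank correlations with each other from 0.915 to 0.959. The 3 progesterone arrays stood apart from the other 9 on the second principal component (-14.1, -46.3 and -54.5 against 0.50 to 20.4 elsewhere). They were also the lowest in the signal of the 3′ minus the 5′ control probe sets of EF1A, a measure of RNA integrity and labelling, at -0.37, -0.31 and -0.33 against -0.08 to 0.74. No other such control set all 3 apart in that direction. For actin they read 0.66, 1.23 and 0.97 against 0.11 to 0.90, with 2 of them the highest of all. For GAPDH they read 0.11, 0.59 and 0.31 against 0.34 to 1.11, with 2 of them the lowest of all. The first arrays of placebo, estrogen and estrogen plus progesterone stood apart on the first component, at -51.6, -44.9 and -44.0 against -1.64 to 29.0. The labels name no batch. Of 15 serotonin neuron markers, 8 were bright enough to test. FEV (8.85 to 10.14) and SLC18A2 (9.34 to 10.86) were bright on every array, SLC17A8, TPH2 and GATA2 were modest (means of 6.84, 7.31 and 7.40), TPH2 read 4.66 on 1 progesterone array, and LMX1B (3.75) and FOXA2 (6.07) were too dim. The number of arrays limits the precision, and the p-values reflect only the spread between these monkeys. In such bulk tissue, fewer cells of a type and less RNA per cell cannot be told apart.

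No gene passed the test for the main effect of progesterone. limma called 0 of the 26383 probe sets at an adjusted p under 0.05 (0%), the lowest being 0.0783. Of all tested probe sets, 47% had a higher mean with progesterone. At an unadjusted p under 0.05 there were 1650 probe sets (6.25%), 833 of them higher with progesterone (3.16%) and 817 lower (3.1%), where 1319 would come by chance alone. The median 95% interval was 0.34 wide to each side of the difference, so main effects of that size or smaller could not be resolved for a typical probe set. The median absolute difference was 0.12. A fit in which progesterone has the same size at both estrogen levels called 0 probe sets (1518 at an unadjusted p under 0.05, lowest adjusted p 0.570), and one without estrogen in the model also called 0 (1417, lowest adjusted p 0.513). Without the first arrays of placebo, estrogen and estrogen plus progesterone, the limma count was again 0, with 1781 at an unadjusted p under 0.05. With the replicate number as a block, limma called 2 probe sets, both without a gene name.

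A small group of genes had every progesterone array on 1 side of the arrays without it at both estrogen levels. Such a lack of overlap, in the same direction at both levels, was found for 152 probe sets (0.576%), 64 higher with progesterone (0.243%) and 88 lower (0.334%). In 59 probe sets (0.224%) all 6 progesterone arrays lay on 1 side of all 6 others, 21 above (0.0796%) and 38 below (0.144%). Lack of overlap in opposite directions at the 2 levels was somewhat more frequent under this normalisation, with 183 probe sets (0.694%), of which 88 (0.334%) were higher without estrogen and lower with it and 95 (0.36%) the reverse. The share with no overlap was 15.3% without estrogen (7.41% above and 7.86% below) and 8.09% with it (4.04% and 4.05%). Under this normalisation the same-direction count did not exceed the opposite one, so it does not show an effect common to both levels. The genes below were picked from these sets, so their lack of overlap is no further support for such an effect.

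Among the named genes that were higher with no overlap at both levels, UBAP1L had the lowest p. It is a relative of the endosomal sorting protein UBAP1. Its placebo arrays read 6.47, 6.58 and 5.63 and its progesterone arrays 7.21, 7.56 and 7.63. With estrogen it read 6.42, 5.78 and 5.60, and with both hormones 7.26, 7.01 and 7.93. All 6 progesterone arrays lay above all 6 others, and the difference was of like size at the 2 levels. UBAP1L was 2.55-fold higher with progesterone (1.35 ± 0.22 on the log2 scale, SE, 95% interval 0.87 to 1.84), 2.36-fold without estrogen and 2.76-fold with it. The limma adjusted p was 0.143. Its main effect stayed between 1.20 and 1.57 over all alternative settings, with adjusted p from 0.0590 to 0.570. The brightness filter for testing was a mean of 6.31 over all arrays. The UBAP1L mean without progesterone was below it, so the gene passed through its arrays with progesterone. Its folds are against dim signal.

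NFIX, a nuclear factor I transcription factor, read 6.59, 6.22 and 7.03 on placebo and 7.83, 8.52 and 7.68 on progesterone, then 6.36, 6.10 and 5.78 on estrogen and 7.36, 6.78 and 6.48 on both hormones. The groups did not overlap at either level, though the lowest array with both hormones was below the highest placebo array. The difference was 1.40 ± 0.30 without estrogen and 0.79 ± 0.30 with it (SE), and the main effect 1.10 ± 0.21 had a limma adjusted p of 0.234. TMEM106B, a lysosomal membrane protein, also differed at both levels. It read 7.01, 6.72 and 6.25 on placebo against 7.82, 8.30 and 7.28 on progesterone, and 5.66, 4.74 and 4.34 on estrogen against 7.20, 5.79 and 6.03 on both hormones. Its values were on average lower in the estrogen groups, with no overlap within either level, and the progesterone differences were 1.14 ± 0.42 and 1.42 ± 0.42. The TMEM106B mean without progesterone was below the brightness filter of 6.31, so these differences are against dim signal. With no normalisation between arrays, neither NFIX nor TMEM106B kept the lack of overlap at both levels.

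BCAT1, the cytosolic enzyme that starts the breakdown of leucine, isoleucine and valine, had nearly the same difference at both levels on 1 probe set. It read 6.24, 6.45 and 6.73 on placebo and 7.22, 6.75 and 7.19 on progesterone, and 6.81, 7.04 and 6.60 on estrogen and 7.36, 7.48 and 7.29 on both hormones. The lowest progesterone array stood only just above the highest placebo array. The differences were 0.58 ± 0.19 and 0.56 ± 0.19. The 2 other BCAT1 probe sets with main effects of 0.60 and 0.49 were less even. They gave 0.86 without estrogen and 0.34 with it, and 1.01 and -0.04. The brightest one gave 0.23 and 0.12, with a main effect of 0.18. RAB29, a small GTPase of Golgi and lysosome traffic, read 7.68 to 8.07 without progesterone over both estrogen levels and 8.08 to 8.74 with it. Its difference was larger without estrogen (0.81 ± 0.16) than with it (0.33 ± 0.16), although all 6 arrays lay above the other 6. NMRAL1, an NADPH sensor protein, had small but even differences of 0.35 and 0.39, with 8.41 to 8.62 without progesterone and 8.75 to 9.11 with it.

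The other genes higher with no overlap at both levels mostly had the larger difference without estrogen. DMAC2, an assembly factor of mitochondrial complex I, gave 0.94 and 0.30, and CADM3, a neuronal adhesion molecule, 1.02 and 0.32. NEK1, a kinase of cilia and DNA repair, gave 1.77 and 0.48, PRRC2C, a stress granule protein, 1.92 and 0.57, and SON, a splicing cofactor of nuclear speckles, 1.83 and 0.45. SPATS2 gave 0.70 and 0.63. Another NEK1 probe set gave 0.03 without estrogen and -0.19 with it. The brightest other PRRC2C probe sets showed little, at -0.006 and 0.09, and 0.13 and -0.14. Dimmer PRRC2C probe sets gave 2.18 and 0.30, 1.73 and 0.21, and 2.07 and 0.11. None of the genes in this paragraph passed the test at either level, with limma adjusted p without estrogen from 0.0507 (NEK1) upward.

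**Figure D1:**
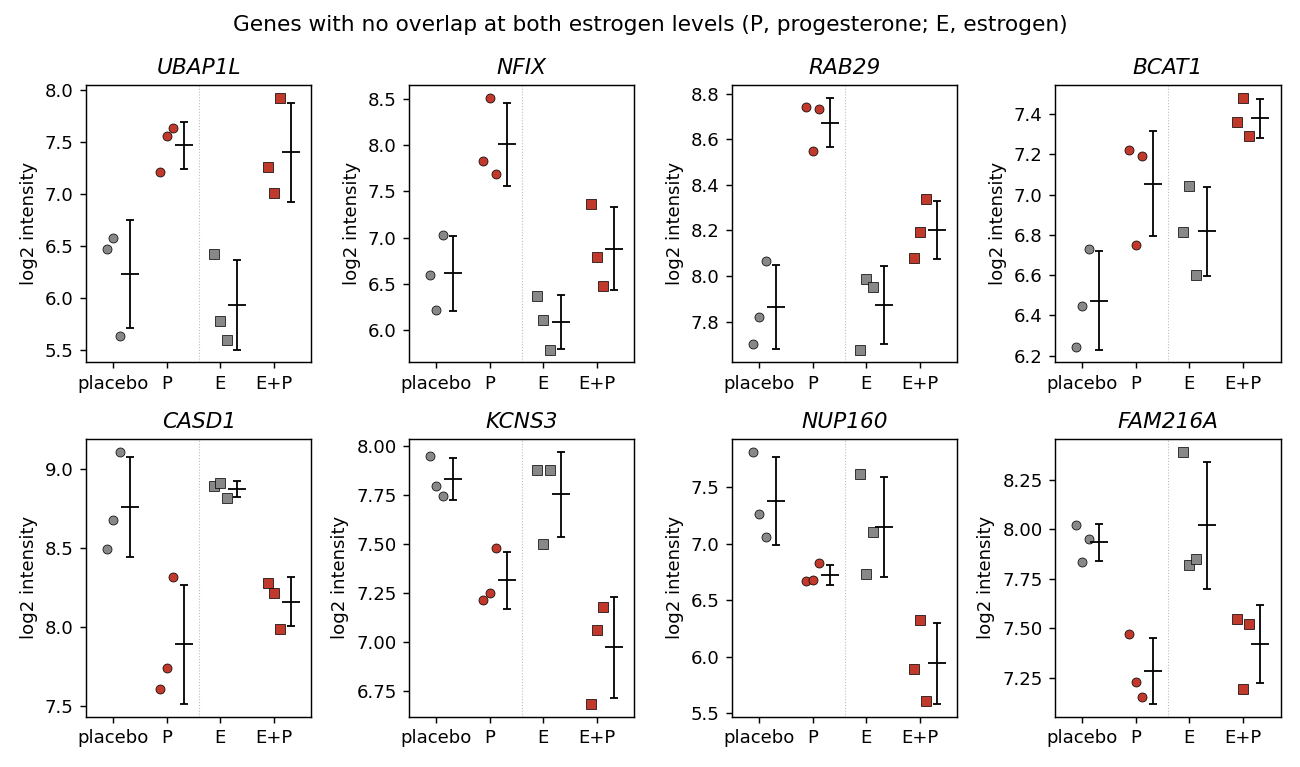
Normalised log2 intensity by array for 8 genes whose groups with and without progesterone did not overlap at either estrogen level (circles, arrays without estrogen; squares, arrays with it; grey, no progesterone; red, progesterone; bars, mean ± SD of 3 arrays). UBAP1L, NFIX, RAB29 and BCAT1 were higher with progesterone, CASD1, KCNS3, NUP160 and FAM216A lower, and UBAP1L runs from 5.60 to 6.58 without it and from 7.01 to 7.93 with it.

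Among the genes lower at both levels, CASD1, the enzyme that adds acetyl groups to sialic acids, came first. It read 8.49, 8.68 and 9.11 on placebo and 7.61, 7.74 and 8.32 on progesterone, and 8.89, 8.91 and 8.82 on estrogen and 8.28, 8.22 and 7.99 on both hormones. All 6 progesterone arrays lay below the other 6. The differences were -0.87 ± 0.21 without estrogen and -0.71 ± 0.21 with it, and the main effect -0.79 ± 0.15 (limma adjusted p 0.232). KCNS3, a modulatory subunit of voltage-gated potassium channels, read 7.95, 7.79 and 7.74 on placebo and 7.21, 7.25 and 7.48 on progesterone. With estrogen it read 7.88, 7.50 and 7.88, and with both hormones 6.69, 7.06 and 7.18. Again all 6 arrays lay below the other 6, with differences of -0.51 ± 0.17 and -0.78 ± 0.17.

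NUP160, a scaffold protein of the nuclear pore, was lower by more with estrogen than without. It read 7.82, 7.26 and 7.06 on placebo and 6.67, 6.68 and 6.83 on progesterone, and 7.62, 6.73 and 7.10 on estrogen and 5.89, 6.32 and 5.61 on both hormones. The 3 lowest arrays of all 12 were those with both hormones. The differences were -0.65 ± 0.26 and -1.21 ± 0.26, and another NUP160 probe set had a main effect of -0.11. FAM216A differed by -0.65 and -0.60, with 7.82 to 8.39 without progesterone and 7.15 to 7.55 with it.

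Several other genes were lower with no overlap at both levels. RAD51C, of homologous recombination repair, gave -0.55 and -0.50, HLCS, which attaches biotin to carboxylases, -0.47 and -0.41, and TMEM150A -0.50 and -0.63. PJA2 and MARCHF7, both E3 ubiquitin ligases, gave -0.74 and -0.54, and -0.67 and -0.31. The very bright PJA2 read 11.38, 11.35 and 11.18 on placebo and 10.12, 10.63 and 10.93 on progesterone, and 11.57, 11.54 and 11.44 on estrogen and 10.89, 11.26 and 10.80 on both hormones. Its other probe sets gave 0.32 and -0.10, so the PJA2 difference rests on 1 probe set. Another MARCHF7 probe set was 0.34 without estrogen and -0.25 with it, in opposite directions with no overlap at either level. The further MARCHF7 probe sets gave 0.32 and -0.23, -0.36 and 0.01, and -0.39 and -0.08. HACD1, an enzyme of very-long-chain fatty acid synthesis, was lower chiefly with estrogen (-0.27 and -0.82), as was ZC2HC1A (-0.28 and -0.50), and C9H10ORF88 gave -0.57 and -0.39. Another ZC2HC1A probe set was 0.53 without estrogen and -0.53 with it, with no overlap at either level, and a further one gave 0.36 and 0.13. Other probe sets had main effects of 0.15 for HLCS, 0.06 for HACD1, and 0.02 and -0.13 for C9H10ORF88.

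These sets depended in part on how arrays were brought to a common scale. Aligning arrays at their medians in place of quantile normalisation put the median difference of all probe sets at -0.09 in the main effect, at -0.12 without estrogen and at -0.06 with it. It left 150 probe sets with no overlap in the same direction at both levels, 29 higher and 121 lower, against 72 in opposite directions, where quantile normalisation gave 64 and 88 against 183. Of the 12 named genes that were higher, 6 kept the lack of overlap under that alignment (UBAP1L, PRRC2C, NFIX, TMEM106B, SPATS2 and CADM3). With no normalisation between arrays 9 did, and PRRC2C, NFIX and TMEM106B were lost. So only UBAP1L, SPATS2 and CADM3 of the 12 kept it under each scaling. Of the 12 that were lower, 11 kept it under each, with MARCHF7 and then HACD1 lost.

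The lowest p of the main effect, at the same adjusted value as ANKRD11, belonged to a probe set with no gene name, MmugDNA.31296.1.S1_at, chosen after its values were seen. It read 6.07, 6.13 and 5.88 on placebo and 8.12, 7.51 and 7.51 on progesterone, and 6.07, 5.53 and 5.72 on estrogen and 6.47, 6.42 and 6.39 on both hormones. All 6 arrays with progesterone lay above the other 6, by 1.68 without estrogen and 0.66 with it on average. Each array without progesterone was below the brightness filter of 6.31, which the probe set passed through its arrays with progesterone. The main effect was 1.17 ± 0.14 (limma adjusted p 0.0783), and the adjusted p was 0.0149 with arrays weighted by quality, 0.0441 with the replicate number as a block and 0.0258 without the first progesterone array.

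Most of the genes with the lowest p in the main effect owed it to the arrays without estrogen. Of the 50 probe sets with the lowest main effect p, 46 had the larger difference without estrogen, 43 were higher with progesterone, and all 50 had no overlap without estrogen, against 17 with it. These counts describe the ranking, which used the same values. Without estrogen, 35 probe sets passed the limma test (0.133%), 31 higher with progesterone (0.117%) and 4 lower (0.0152%), and 2605 (9.87%) had an unadjusted p under 0.05 (4.74% higher and 5.14% lower). With estrogen, 0 passed (lowest adjusted p 0.9999), and 786 (2.98%) had an unadjusted p under 0.05 (1.35% higher and 1.63% lower), fewer than the 1319 expected by chance. That count with estrogen was 1828 with array weights, 1506 without the first estrogen array and 575 under median alignment, again with 0 passing. Of the 35, 22 had the same sign with estrogen, and 3 had no overlap there in the same direction.

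ANKRD11, a chromatin regulator that binds nuclear receptor coactivators, rose without estrogen. It read 6.70, 6.25 and 6.79 on placebo and 8.69, 8.52 and 8.42 on progesterone, against 6.94, 6.74 and 6.48 on estrogen and 7.05, 6.66 and 7.26 on both hormones. The 3 progesterone arrays stood alone above the other 9. It was 3.9-fold higher without estrogen (1.96 ± 0.21, limma adjusted p 0.00735) and 1.21-fold with it (0.27 ± 0.21), and the main effect of 1.12 ± 0.15 had an adjusted p of 0.0783. Another ANKRD11 probe set had a main effect of -0.18. Without estrogen that probe set went the other way, at -0.44 with no overlap, and with estrogen it gave 0.08. PPM1A, a phosphatase of SMAD and stress kinase signalling, rose likewise, from 6.44, 7.13 and 6.96 on placebo to 8.99, 8.95 and 9.13 on progesterone. Its estrogen arrays read 6.38, 7.22 and 6.69 and those with both hormones 6.67, 6.89 and 7.19, which overlapped. The differences were 2.18 ± 0.24 (adjusted p 0.00735) and 0.15 ± 0.24, and the other PPM1A probe sets gave main effects of 0.07, 0.17 and -0.06.

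TM7SF3, a multi-span membrane protein, rose by 1.90 ± 0.19 without estrogen (adjusted p 0.00735) and differed by -0.14 ± 0.19 with it. WASHC4, part of the WASH complex of endosomes, rose by 1.72 ± 0.22 (adjusted p 0.0166), from 6.86, 6.99 and 7.42 to 8.63, 9.29 and 8.51, and read 7.04, 7.26 and 7.00 on estrogen and 7.12, 7.42 and 7.29 on both hormones. The other WASHC4 probe sets gave main effects of 1.04, 0.85 and -0.09. ITPRID2 rose by 1.94 without estrogen (adjusted p 0.0335) and differed by 0.40 with it. MYO6, a myosin of endocytic traffic, rose by 1.80 (adjusted p 0.018) and differed by 0.10. Another ITPRID2 probe set gave only 0.40 without estrogen and 0.001 with it, and another MYO6 probe set 0.10 and 0.08. With the replicate number as a block, ITPRID2 lost its call (adjusted p 0.0841), while ANKRD11, PPM1A, TM7SF3, WASHC4 and MYO6 kept theirs (adjusted p 0.00831 to 0.0471). TRPM3, a cation channel opened by the neurosteroid pregnenolone sulfate, missed the threshold without estrogen (1.89, adjusted p 0.0507). It read 6.84, 7.03 and 7.82 on placebo and 9.12, 9.00 and 9.22 on progesterone, and 7.42, 6.89 and 6.11 on estrogen and 7.65, 7.40 and 7.40 on both hormones, where the groups overlapped by the margin between 7.42 and 7.40. With estrogen the TRPM3 difference was 0.68.

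In the other direction, CD47, the cell surface signal that holds phagocytes back, fell without estrogen. It read 9.50, 9.75 and 9.39 on placebo and 8.70, 8.48 and 8.32 on progesterone, but 9.08, 9.09 and 9.28 on estrogen and 9.22, 9.02 and 8.86 on both hormones. The difference was -1.05 ± 0.16 without estrogen (adjusted p 0.0381) and -0.12 with it. LPCAT4, which remodels lysophospholipids, fell from 8.01, 7.97 and 8.10 to 7.09, 6.91 and 6.81, a difference of -1.09 (adjusted p 0.0307), and differed by 0.05 with estrogen. With the replicate number as a block neither passed, CD47 at an adjusted p of 0.0759 and LPCAT4 of 0.0571. CPLX2, the complexin of synaptic vesicle release, did not pass but had no overlap without estrogen. It read 10.64, 10.62 and 10.37 on placebo and 9.79, 9.90 and 9.93 on progesterone (-0.67), against 10.84, 10.84 and 10.71 and 10.47, 10.80 and 10.60 with estrogen (-0.17). Another CPLX2 probe set had a main effect of -0.40. EXOC3L1 gave -0.84 and -0.16.

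The 3 progesterone arrays behind these differences had the lowest EF1A 3′ minus 5′ values, while 2 of them had the highest of actin and 2 the lowest of GAPDH. The part of RNA quality in the differences without estrogen was not tested. The count of 35 also moved with single arrays. It was 5 without the second placebo array, 7 without the second progesterone array, 10 without the first placebo array, 19 without the third progesterone array, 21 without the third array with both hormones and 55 without the third placebo array. It was 0 when only the 6 arrays without estrogen were fitted (lowest adjusted p 0.0852), and 20, all higher, with the replicate number as a block.

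**Figure D2:**
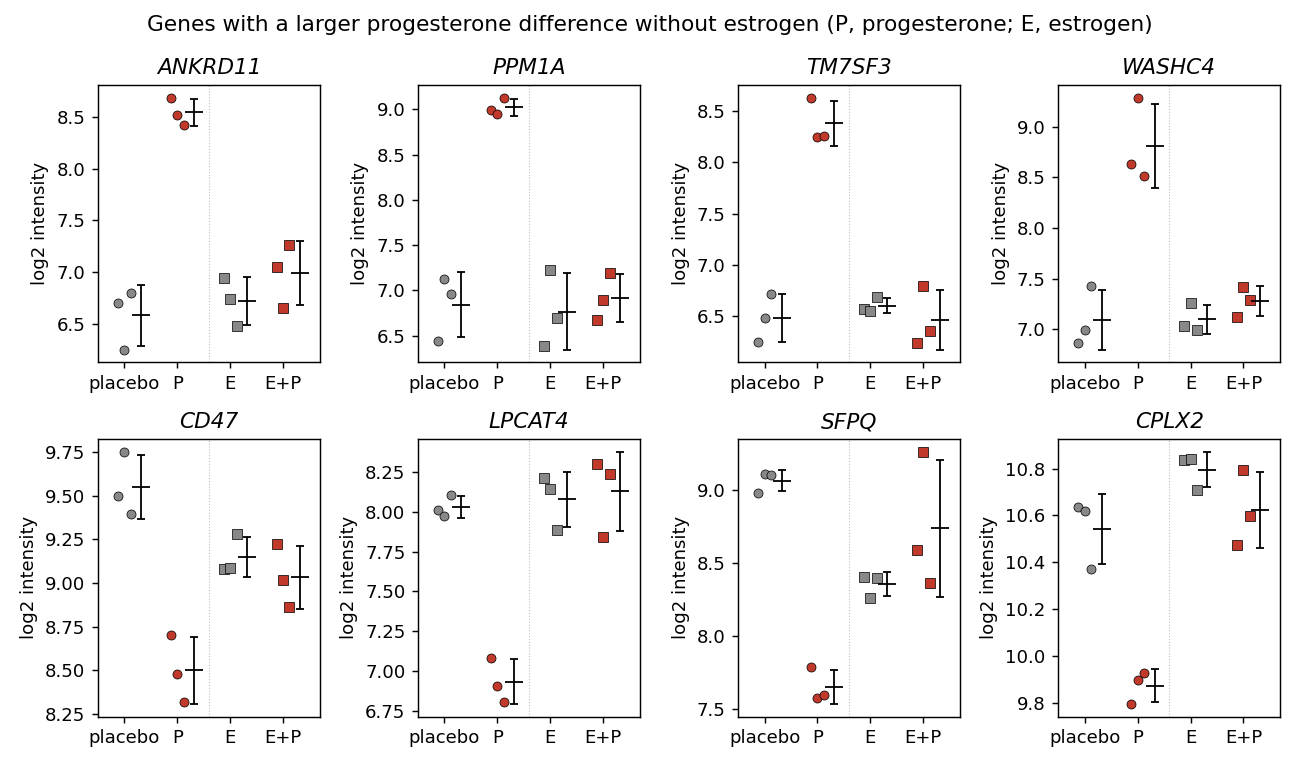
Normalised log2 intensity by array for 8 genes whose progesterone difference was larger without estrogen (circles, arrays without estrogen; squares, arrays with it; grey, no progesterone; red, progesterone; bars, mean ± SD of 3 arrays). In ANKRD11, PPM1A, TM7SF3 and WASHC4 the red circles lie above every other array, in CD47, LPCAT4, SFPQ and CPLX2 below every other array, and ANKRD11 reads 8.42 to 8.69 there.

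The progesterone differences at the 2 estrogen levels did not follow each other across the genome. Over the 26383 probe sets, which are not independent replicates, Pearson's r between them was 0.02 and Spearman's rho -0.01, and 12938 (49%) had the same sign. Of the 50 probe sets with the lowest p without estrogen, 32 had the same sign with estrogen, where their median difference in that direction was 0.12 against 1.79. Of the 50 with the lowest p with estrogen, 24 had the same sign without, where the median was -0.01 against 0.79. The differences were also more widely spread without estrogen (SD over probe sets 0.38) than with it (0.26). Under median alignment 55.3% had the same sign.

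**Figure D3:**
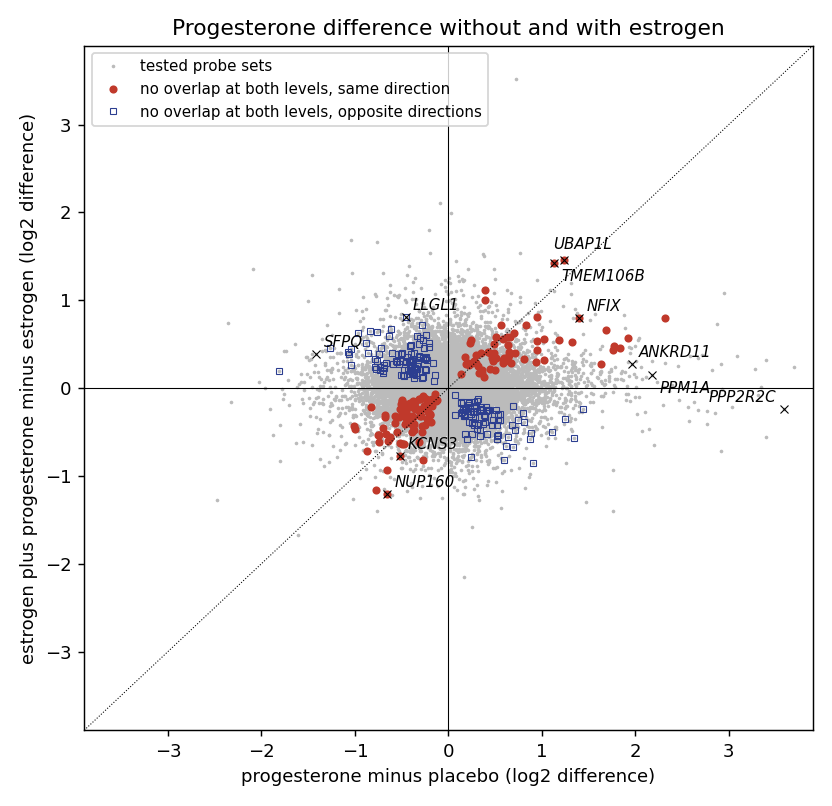
Progesterone difference without estrogen (horizontal axis) against that with estrogen (vertical axis), both in log2 units, for the 26383 tested probe sets; red points had no overlap at both levels in the same direction (152) and blue open squares in opposite directions (183). The cloud has no slope (r 0.02), and UBAP1L lies near the line of equal differences while ANKRD11 and PPM1A lie near the horizontal axis.

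The test of the difference between the 2 levels, the interaction of progesterone and estrogen, called 0 probe sets in limma (lowest adjusted p 0.211), with 1688 (6.4%) at an unadjusted p under 0.05 (3.18% higher and 3.21% lower). So the genes that passed without estrogen were not shown to differ from their value with it. The median 95% interval of this difference was 0.69 wide to each side. The lowest p belonged to TM7SF3, with an interaction of -2.04 (adjusted p 0.211). For ANKRD11 it was -1.69 (adjusted p 0.296) and for PPM1A -2.03 (adjusted p 0.295).

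SFPQ, a splicing factor of nuclear paraspeckles, had the lowest interaction p in the other direction. It read 8.98, 9.11 and 9.10 on placebo and 7.79, 7.57 and 7.59 on progesterone, and 8.41, 8.26 and 8.40 on estrogen and 8.59, 9.26 and 8.36 on both hormones. It fell without estrogen (-1.41 ± 0.20, limma adjusted p 0.0253) and differed by 0.38 ± 0.20 with it, and the interaction was 1.80 ± 0.29 (adjusted p 0.241). With the replicate number as a block its fall did not pass (adjusted p 0.0571). In LLGL1, a regulator of cell polarity, the groups did not overlap at either level and lay in opposite order. It read 9.20, 9.00 and 8.92 on placebo against 8.61, 8.52 and 8.64 on progesterone, and 8.57, 8.17 and 8.27 on estrogen against 9.25, 8.83 and 9.36 on both hormones. The single hormones gave the low values and placebo and the combination the high ones. The LLGL1 differences were -0.46 ± 0.17 and 0.81 ± 0.17, the main effect 0.18 and the interaction 1.26 ± 0.25 (adjusted p 0.425). CCDC181 was of the same kind, with -0.84 and 0.65. USP16, a deubiquitinase of histone H2A, rose without estrogen (1.52, adjusted p 0.018) and differed by -0.16 with it, and YPEL5 gave -1.08 and 0.10. PPP2R2C, a brain regulatory subunit of phosphatase PP2A, rose by 3.59 ± 0.49 without estrogen (adjusted p 0.018), from 5.28, 7.29 and 7.72 to 10.44, 10.48 and 10.13, and differed by -0.24 with it, at 7.71, 7.72 and 7.41 on estrogen and 7.70, 6.89 and 7.53 on both hormones. With the block PPP2R2C was at an adjusted p of 0.0505 and USP16 at 0.0478.

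Progesterone's own receptors and their partners had no called member. Of 20 genes in this list, 15 were bright enough to test, 9 had higher values with progesterone and 1 of these had an unadjusted p under 0.05. Of all tested probe sets, 47% were higher and 6.25% had an unadjusted p under 0.05. The list's median main effect was 0.03, beside -0.01 over all tested probe sets, and it was -0.06 under median alignment. PGR, the nuclear progesterone receptor, was too dim to test, with a mean of 2.82, as were FKBP5 (4.21) and ESR1 (4.97), so no difference is given for them.

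PGRMC1, a membrane-associated progesterone-binding protein, was among the brightest genes and hardly varied. It read 12.19, 12.37 and 12.24 on placebo, 12.22, 12.07 and 12.32 on progesterone, 12.31, 12.45 and 12.29 on estrogen and 12.26, 12.35 and 12.28 on both hormones. The groups overlapped at both levels, and the main effect of -0.06 ± 0.09 had a 95% interval from -0.26 to 0.15. PGRMC2 had 0.01 ± 0.15, with an interval from -0.32 to 0.34. FKBP4, the immunophilin of the unliganded receptor complex, read 10.05, 9.98 and 10.06 on placebo and 9.89, 9.68 and 9.72 on progesterone, and 9.89, 10.28 and 10.19 on estrogen and 10.01, 10.16 and 10.32 on both hormones. It had no overlap without estrogen and overlapped with it, and the main effect was -0.11 ± 0.11 (interval -0.35 to 0.12). The chaperones HSP90AB1 and PTGES3 had 0.03 (interval -0.20 to 0.25) and -0.11 (interval -0.54 to 0.32).

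SERBP1, an RNA-binding partner of PGRMC1, was the list member with the lowest p. It read 7.65, 8.01 and 8.08 on placebo and 9.05, 8.45 and 8.99 on progesterone, and 8.36, 7.78 and 7.85 on estrogen and 8.19, 8.24 and 8.18 on both hormones. The groups separated without estrogen and overlapped with it, with differences of 0.92 and 0.20, and the main effect was 0.56 ± 0.15 (limma adjusted p 0.50). Of the other steroid receptors, NR3C1, the glucocorticoid receptor, had 0.00 ± 0.12 (interval -0.27 to 0.27) and ESR2, estrogen receptor beta, 0.17 (interval -0.31 to 0.65). Of 13 tested genes of that list, 4 had higher values, and 1 had an unadjusted p under 0.05 (7.69%, beside 6.25% of all tested probe sets). It was the retinoid X receptor gene RXRA, with -0.59 without estrogen and -0.03 with it.

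Of the steroid receptor coregulators, 5 of 14 tested had higher values with progesterone, 0 were called, and the 3 with an unadjusted p under 0.05 were all lower. Over all tested probe sets 47% were higher, and 3.1% were lower with an unadjusted p under 0.05. They were EP300, a histone acetyltransferase (-0.31 ± 0.13), NCOR1, a corepressor (-0.48 ± 0.21), and NSD1, a histone methyltransferase (-0.35 ± 0.15). Each was lower at both estrogen levels, EP300 by more with estrogen (-0.21 and -0.41), and NCOR1 (-0.53 and -0.43) and NSD1 (-0.46 and -0.23) by more without. NCOA3, a p160 coactivator, read 6.88, 7.98 and 7.95 on placebo and 8.56, 8.30 and 8.27 on progesterone, and 7.69, 7.77 and 7.72 on estrogen and 7.56, 7.72 and 7.85 on both hormones. It was separated without estrogen only (0.78), although 1 low placebo array enters that difference, and differed by -0.02 with estrogen.

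Among 29 tested genes known from other tissues as responsive to progestins or corticosteroids, 13 had higher values, 0 were called, and the median main effect was -0.01. SLC19A2, a thiamine transporter, had the lowest p among them. It read 7.49, 7.50 and 7.40 on placebo and 6.83, 5.23 and 4.92 on progesterone, and 7.50, 6.86 and 7.24 on estrogen and 6.72, 6.68 and 6.92 on both hormones. The difference was -1.80 without estrogen, where the groups did not overlap, and -0.42 with it, where they did, and the main effect was -1.11 ± 0.27 (limma adjusted p 0.466). Without the first progesterone array, SLC19A2 was 1 of 7 probe sets that passed the main effect test (-1.41, adjusted p 0.0106). The SLC19A2 mean with progesterone was below the brightness filter of 6.31, so its lower values are dim. DUSP1, a phosphatase of MAP kinases, read 9.77, 9.87 and 9.58 on placebo and 9.24, 9.29 and 9.35 on progesterone (-0.45), and 9.29, 9.23 and 9.40 on estrogen and 9.41, 8.90 and 9.01 on both hormones (-0.20). It had no overlap without estrogen and overlapped with it. CEBPD, a transcription factor of the stress response, had 0.68 and 0.18.

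Among the serotonin genes, SLC18A2, GCH1 and FEV had lower average values with progesterone at both estrogen levels, and none was called. Of 14 tested genes of serotonin synthesis, storage, breakdown and signalling, 6 had higher values, and of 8 tested genes that mark serotonin neurons, 3 had. CALCA, a member of the marker list, was higher, with a main effect of 0.68. The marker list's median was -0.15, with -0.31 without estrogen, where 1 of 8 was higher, and -0.03 with it, where 4 of 8 were. With no normalisation between arrays the main effect median was -0.15, and under median alignment -0.23, where that of all probe sets was -0.09.

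SLC18A2, the vesicular monoamine transporter, read 10.12, 10.45 and 9.95 on placebo and 10.03, 9.77 and 9.34 on progesterone, and 10.22, 10.41 and 10.86 on estrogen and 10.26, 10.04 and 10.01 on both hormones. The groups overlapped at both levels, in each case by 1 array. Its main effect was -0.43 ± 0.16 (interval -0.77 to -0.08, limma adjusted p 0.725), with -0.46 without estrogen and -0.39 with it. GCH1, which makes the tetrahydrobiopterin cofactor of tryptophan hydroxylase, was much alike. It read 8.04, 8.84 and 8.57 on placebo, 8.17, 8.00 and 7.91 on progesterone, 8.15, 8.73 and 8.96 on estrogen and 8.00, 8.47 and 7.99 on both hormones, and the differences were -0.45 and -0.46. FEV, the transcription factor that defines serotonin neurons, had 9.30 to 10.14 without progesterone and 8.85 to 9.82 with it, and differences of -0.49 and -0.14. SPR, the last enzyme of tetrahydrobiopterin synthesis, had -0.57 and -0.05, and MAOA, which degrades serotonin, -0.06 and -0.28.

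TPH2, the neuronal tryptophan hydroxylase, did not follow them. It read 6.47, 7.44 and 7.80 on placebo and 7.74, 6.99 and 4.66 on progesterone, and 7.22, 7.14 and 7.39 on estrogen and 8.85, 8.51 and 7.53 on both hormones. The groups overlapped without estrogen and not with it, and the 2 highest of all 12 arrays were from animals on both hormones. The differences were -0.77 ± 0.65 and 1.05 ± 0.65, the main effect 0.14 ± 0.46 (interval -0.87 to 1.15), and the interaction 1.82 ± 0.92 (adjusted p 0.785). The serotonin receptor HTR1A was too dim to test (5.07), and HTR2A had 0.34. No probe set on the array was named SLC6A4 or MAOB here.

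**Figure D4:**
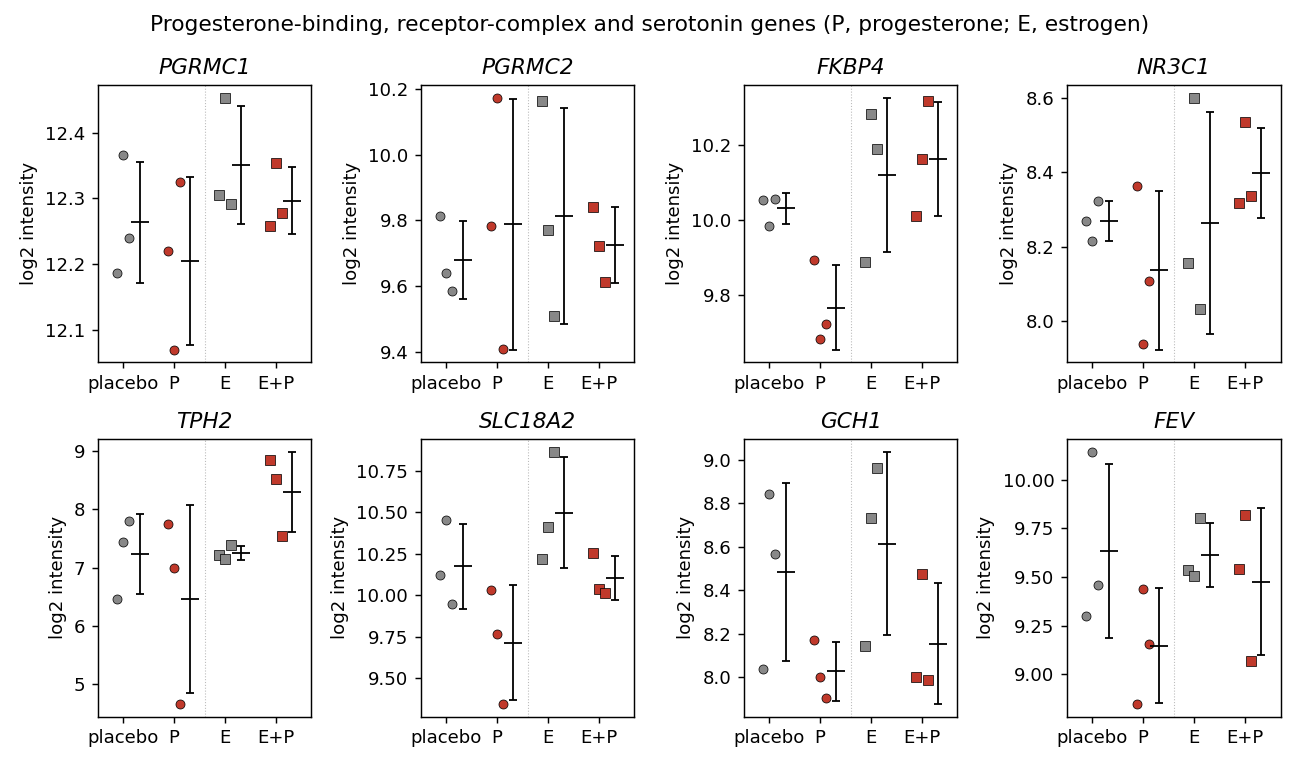
Normalised log2 intensity by array for 4 steroid signalling genes (PGRMC1, PGRMC2, FKBP4, NR3C1) and 4 serotonin genes (TPH2, SLC18A2, GCH1, FEV), with circles for arrays without estrogen, squares for arrays with it, grey for no progesterone, red for progesterone, and bars for the mean ± SD of 3 arrays. PGRMC1 spans 12.07 to 12.45 over all arrays, while TPH2 spans 4.66 to 8.85 and its groups overlap without estrogen.

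Progesterone is the parent of the neurosteroid allopregnanolone, which acts on GABA-A receptors. Of 14 tested genes of neurosteroid synthesis and metabolism, 6 had higher values, 0 were called and 0 had an unadjusted p under 0.05. TSPO, the mitochondrial translocator protein, had 0.35 and 0.09, HSD11B1, which regenerates cortisol, a main effect of 0.38, and FDX1, the electron donor of mitochondrial steroid enzymes, -0.25. Of 6 tested GABA-A subunits, 2 had higher values (GABRA2 and GABRA3) and 0 were called. With the associated proteins GPHN, GABARAP and GABARAPL1, it was 4 of 9. GABRE, the epsilon subunit, had -0.41 ± 0.17, alike at both levels (-0.38 and -0.45), with no overlap in the arrays with estrogen. GABRA2 had 0.79 without estrogen and -0.14 with it.

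Of 8 tested stress peptides and receptors, CRHR1, the receptor of corticotropin-releasing hormone, was the only 1 with no overlap at both levels in the same direction, as were 0.576% of all probe sets. It read 7.91, 7.53 and 7.89 on placebo and 7.46, 6.15 and 7.24 on progesterone, and 7.97, 7.94 and 7.92 on estrogen and 7.86, 7.47 and 7.84 on both hormones. The nearest arrays were close, 7.46 against 7.53 without estrogen and 7.86 against 7.92 with it, and 1 progesterone array was far lower. The differences were -0.83 and -0.22, and the main effect -0.52 ± 0.20. CARTPT, a neuropeptide, varied from 7.93 to 12.05 between arrays, and its main effect of 0.71 ± 0.51 was small beside that spread.

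Immediate early genes, which follow neuronal activity, had lower values in 14 of 16 tested members, with a median main effect of -0.12 against -0.01 over all probe sets, and 0 were called. The median was -0.26 without estrogen, where 2 of 16 were higher, and -0.05 with it, where 6 were. In the main effect it was -0.08 with no normalisation between arrays and -0.16 under median alignment, where that of all probe sets was -0.09. DUSP1 and JUND had an unadjusted p under 0.05 (12.5% of the list, beside 6.25% of all tested probe sets), and JUND had -0.88 and -0.24. Of 10 synaptic vesicle release genes, 1 had higher values without estrogen and 6 with it, and the medians were -0.14 and 0.07. CPLX2 and SV2B were the 2 with an unadjusted p under 0.05 (20% of the list), and SV2B, a vesicle glycoprotein, was alike at both levels (-0.29 and -0.32). STX1A, a syntaxin of the release machinery, had a main effect of 0.21.

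Splicing and nuclear RNA-binding genes went both ways: 15 of 27 had higher values (12 with no normalisation between arrays and 9 under median alignment). Of these 27, 0 were called, and 3 higher and 1 lower had an unadjusted p under 0.05. That was 14.8% of the list, beside 6.25% of all tested probe sets (3.16% higher and 3.1% lower). SRRM2, a speckle scaffold protein, had 2.46 without estrogen and 0.25 with it, and RBM25 had 2.92 and -0.72. SRSF11 (0.70 and 0.28) and TRA2A (-0.48 and -0.29) kept their direction at both levels. Of 15 tested genes of branched-chain amino acid breakdown and its control, BCAT1 itself among them on its brightest probe set, 7 had higher values. In this list 2 higher and 1 lower had an unadjusted p under 0.05 (20%, beside the same 6.25%). IVD, of leucine breakdown, had 0.58 and 0.38, ALDH6A1, of valine breakdown, 0.43 and 0.58, and HIBCH, also of valine breakdown, -0.39 and -0.34. ALDH6A1 read 7.58, 8.19 and 8.57 on placebo and 8.48, 8.57 and 8.58 on progesterone, which overlapped, and 8.88, 8.42 and 8.48 on estrogen and 9.62, 9.14 and 8.76 on both hormones, which also overlapped.

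Heat shock and chaperone genes had higher values in 12 of 18 members, with a median of 0.06, proteasome genes in 12 of 21 and oxidative phosphorylation genes in 15 of 29, where 47% of all probe sets were higher. Median alignment, which lowers all genes together and leaves 30.8% of all probe sets higher, gave 4 of 18, 2 of 21 and 7 of 29. Cholesterol synthesis had 7 of 18, with IDI1, an isoprenoid enzyme, at 0.98 and 0.24. Potassium channels had 10 of 22, with KCNS3 the only member with no overlap at both levels in the same direction (0.576% of all probe sets), glutamate receptors 1 of 6, antigen presentation genes 6 of 15 and protein phosphatases 9 of 21. None of the 30 lists had a called member in the main effect or at either level. Each member was read on its brightest probe set. Of the 9305 brightest probe sets of tested named genes, 1 was called without estrogen and 0 in the main effect or with estrogen. So a lack of called members says little about the lists.

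**Figure D5:**
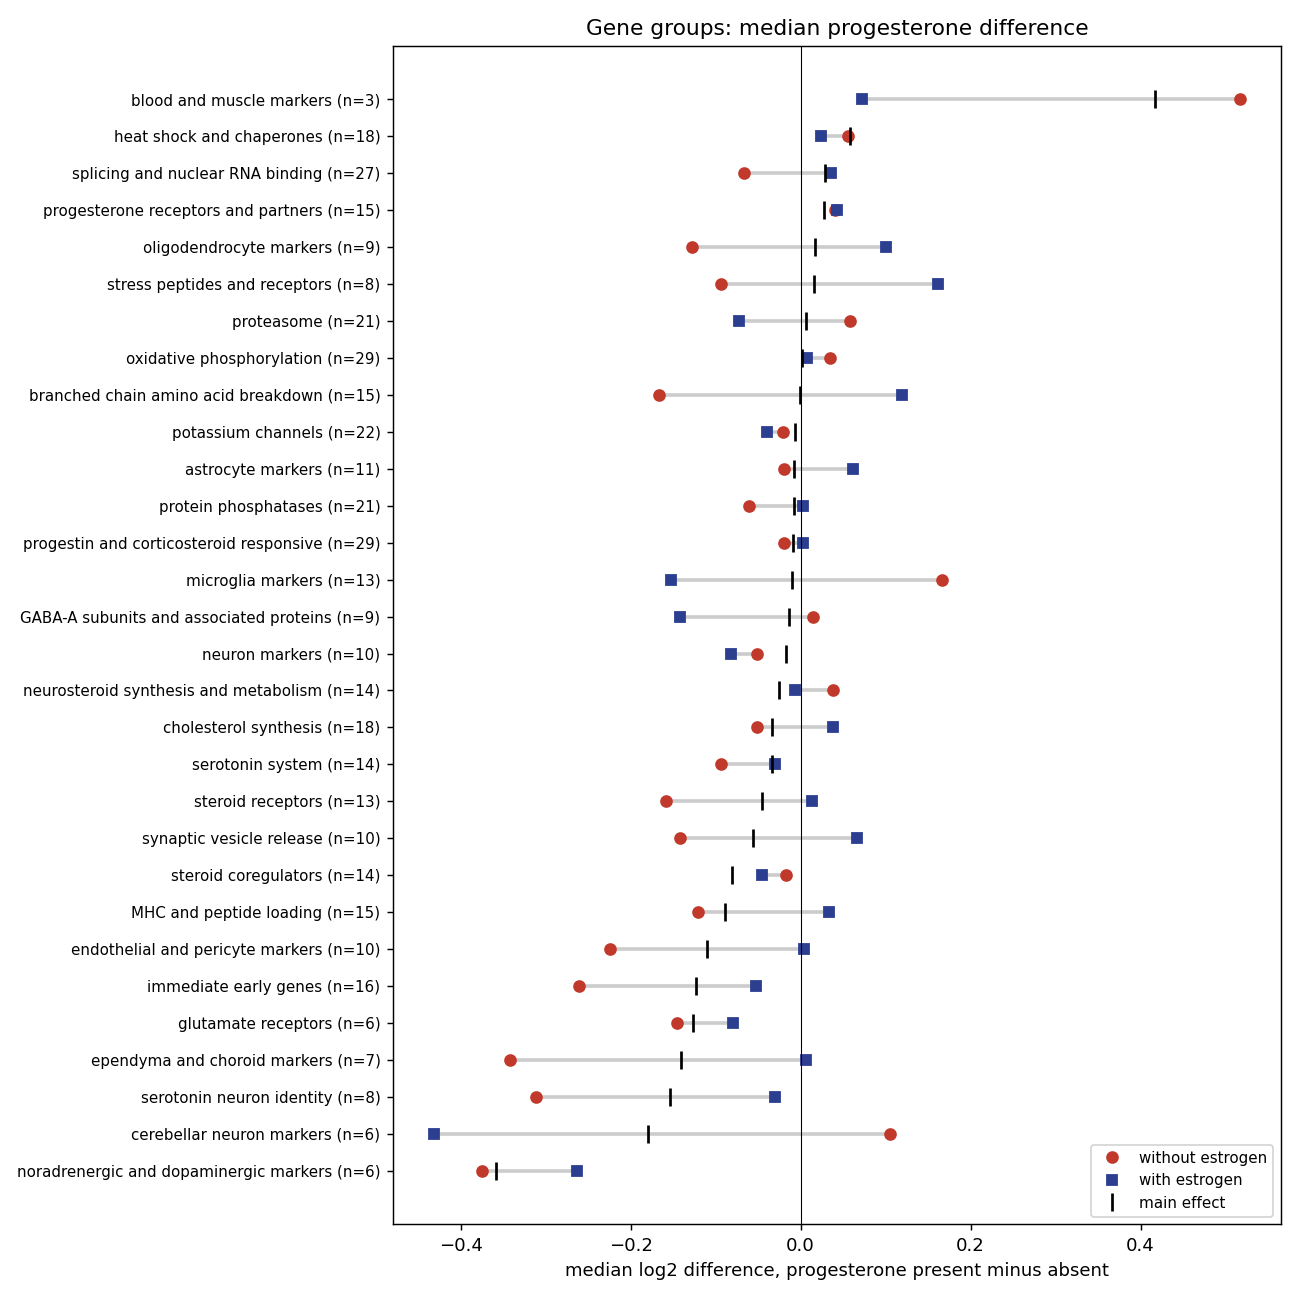
Median progesterone difference, in log2 units, of each of 30 gene lists without estrogen (red circles), with estrogen (blue squares) and in the main effect (black ticks), under quantile normalisation. Immediate early genes lie at -0.26 and -0.05, progesterone receptors and partners at 0.04 and 0.04, and 22 of the 30 lists have a main effect median below 0, 21 without estrogen and 13 with it.

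Markers of other cell types were followed beside these groups, and none was called. Endothelial and pericyte markers had a median of -0.22 without estrogen, where 1 of 10 was higher, and 0.00 with it, where 5 were. Their mean level per array was 7.72 to 8.12 on placebo and 7.51 to 7.71 on progesterone, 7.62 to 7.82 on estrogen and 7.63 to 7.90 on both hormones. ABCB1, the efflux pump of the blood-brain barrier, had -0.58 and -0.22. Ependyma and choroid markers had 0 of 7 higher without estrogen (median -0.34), with mean levels of 7.16 to 7.30 on placebo and 6.48 to 7.26 on progesterone. Serotonin neuron markers had mean levels of 8.16 to 8.66 on placebo, 7.74 to 8.35 on progesterone, 8.11 to 8.57 on estrogen and 8.16 to 8.56 on both hormones. Microglia markers had medians of 0.17 and -0.15, and oligodendrocyte markers -0.13 and 0.10. Cerebellar neuron markers, which would mark tissue from outside the raphe, had 0.10 and -0.43, and blood and muscle markers, only 3 of them tested, 0.52 and 0.07. The mean cerebellar level was highest on the second estrogen array (9.08) and the second array with both hormones (8.49). It was 7.60 to 8.14 on the other arrays. Neuron and astrocyte markers had main effect medians of -0.02 and -0.01. The noradrenergic and dopaminergic list, which shares SLC18A2, had a median of -0.36, with PHOX2A at -0.61 and TH at -0.39. Of all probe sets, 46.7% were higher without estrogen and 49.9% with it, and the part of cell composition in the differences of the serotonin, immediate early and synaptic genes was not tested.

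Where a gene had more than 1 tested probe set, they did not always move alike. Of 35 genes named for their low main effect p or for lack of overlap, 26 had another tested probe set, and 32 of these 47 other probe sets had the same direction. CADM3 (0.57), TRPM3 (0.42) and TM7SF3 (0.38) were among those with a like direction. The other probe sets of RAB29 (0.02) and SON (0.05 and 0.24) showed little, those of CD47 gave 0.02, -0.40 and -0.57, and TMEM106B had both 1.15 and -0.13.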

How the data were processed

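The authors deposited 1 linear intensity per probe set, scaled so that each array's mean, trimmed by 2% at either end, was 200.0. The software was not given in the sources used here. Per the labels' protocols, RNA was extracted with Trizol, purified on Qiagen columns and labelled with biotin (Enzo kit). Of 52865 probe sets, 99 controls were removed. The rest were floored at the 5th percentile (intensity 4.99), taken to log2 and quantile normalised, and the 26383 with a mean of at least 6.31 (intensity 79.5) were tested.

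limma 3.58.1 in R 4.3.3 fitted 1 mean per group over 12 arrays (8 residual and 3.54 prior degrees of freedom), two-sided, with Benjamini-Hochberg adjustment over all tested probe sets and a threshold of 0.05. Every SE is that of the fit. Python 3.11.15 with matplotlib 3.10.9 drew the figures. The steps were tested on simulated data.

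Symbols came from the rhesus gene tables: 24956 probe sets had 1 symbol (15938 of those tested), 361 several (224) and 27449 none (10221). Among the tested probe sets with 1 symbol, 918 had a locus number for it and were not named. Genes named are the 12 in each direction with the lowest main effect p, the 12 in each direction with the lowest p among those with no overlap at both levels, the 5 in each direction with the lowest interaction p, a preset list of steroid, serotonin and GABA-A genes on their brightest probe set, and up to 4 members of each gene list by p. GRID1, LUC7L3, GABRA3, GPHN, GABARAP, SLC17A8, GATA2, LMX1B and FOXA2 fall outside this rule, as their values were seen first. The members and lists were chosen with earlier results of these data known.

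Replicate numbers 1 to 3 are in the labels, with 1 monkey per chip. Deviations of same-numbered arrays correlated by 0.142 to 0.507 between estrogen and estrogen plus progesterone, all above 0.1. From these data alone, the replicate number was used as a block in an alternative fit. Between placebo and progesterone, same-numbered arrays correlated by -0.244 to -0.105 and unlike-numbered arrays reached 0.309. Between the estrogen groups, unlike-numbered arrays reached 0.267, above the lowest same-numbered value, so whether the numbers pair animals is not settled. The reported fit has no block. Alternatives were other scalings, floors and filters, the brightest probe set, other models, array weights, the replicate block, and leaving out arrays.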

Additional observations from a re-analysis of the deposited data

Results flagged for a closer look

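In 21 of 226 groups of 6 arrays, with or without progesterone, the highest or lowest array stood far from its nearest neighbour (Dixon's criterion at 95%, by which chance alone marks about 1 group in 20). Several of these bear on a difference given above. The first placebo array was low in PPP2R2C (5.28, nearest 7.29), NCOA3 (6.88, nearest 7.69), SRRM2 (6.90, nearest 8.21), HSPA4 (8.42, nearest 9.47) and GABRB1 (9.54, nearest 10.50). The second placebo array was low in CADM3 (5.55, nearest 6.34), CRHR1 (7.53, nearest 7.89) and ABCB1 (6.93, nearest 7.28) and high in NR4A1 (7.62, nearest 7.01), and the third was low in IDI1 (7.83, nearest 8.85). The first estrogen array was high in FAM216A (8.39, nearest 8.02), and the second low in GABRA2 (7.41, nearest 7.88).

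Among the arrays with progesterone, the second progesterone array was low in CRHR1 (6.15, nearest 7.24), C9H10ORF88 (6.69, nearest 7.07) and HSPH1 (10.70, nearest 11.18) and high in CARTPT (12.05, nearest 9.83). The third progesterone array was low in TH (6.87, nearest 8.31). The first array with both hormones was high in BCL2L1 (8.66, nearest 7.90) and low in PHOX2A (5.37, nearest 6.46) and IVD (7.49, nearest 8.33), and the third was high in PSMB10 (9.22, nearest 8.97).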

How the results depend on the processing

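Of 113 genes followed over 23 alternative settings, 106 kept the sign of their main effect in each setting that gave a value and 7 did not. The 7 had main effects from -0.11 (PTGES3) to 0.14 (TPH2). Under median alignment PGRMC2 was -0.11, NR3C1 -0.088 and HSP90AB1 -0.049. With no normalisation between arrays PGRMC2 was -0.018 and NR3C1 -0.00071, and with array weights NR3C1 was -0.035. Without the first arrays of placebo, estrogen and estrogen plus progesterone, NR3C1 was -0.0071, TPH2 -0.20 and GABRA4 0.029. Leaving out 1 array at a time gave PGRMC2 -0.086 to 0.11, NR3C1 -0.057 to 0.084, TPH2 -0.18 to 0.59, HSP90AB1 -0.022 to 0.059, PTGES3 -0.25 to 0.00074, GABRA4 -0.17 to 0.053 and GABRB1 -0.26 to 0.06.

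The main effect called 1 probe set with array weights and 2 with the replicate block, and 0 to 7 when 1 array was left out: 2 without the third placebo array (LUC7L3, 1.23, adjusted p 0.0419, and 1 unnamed) and 7 without the first progesterone array (SLC19A2, GRID1 at -1.43 with adjusted p 0.00767, and 5 unnamed). The 35 calls without estrogen became 20 with the replicate block, all of them higher, 0 with each named gene kept to its brightest probe set, 0 with only the 6 arrays without estrogen, 13 without the 3 first arrays, and 5 to 55 when 1 array was left out. The calls with estrogen were 0 to 1 and those of the interaction 0 to 4 when 1 array was left out. The 152 probe sets with no overlap in the same direction at both levels became 282 with no filter, 81 with the filter at the 75th percentile, 55 with the brightest probe set only, 1194 without the 3 first arrays and 221 to 462 without 1 array, and fewer arrays make a lack of overlap easier. Pearson's r between the levels was -0.00145 with the filter at the 75th percentile and -0.012 to 0.062 without 1 array. Except where given, the cause was not tested. Signal over background limits PGR, FKBP5, ESR1 and HTR1A, which could not be tested.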
